A study of Mus musculus with 4 samples.

Results

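The muscle genes described here are 41 genes of smooth and skeletal muscle contraction, chosen by symbol from the 18781 genes of the deposited table, and all 41 were listed there. They fall into 15 genes of vascular smooth muscle and mural cells and 26 genes of skeletal muscle. The genes were measured in mature dermal adipocytes from dorsal skin (2 libraries) and mature inguinal adipocytes from the subcutaneous fat of the groin (2 libraries). All mice were of the inbred C57BL/6 strain and 30 days old (postnatal day 30), and the labels name no treatment or genetic change. The cells were freed with collagenase IV and dispase II and collected by flotation, and the labels do not say how many animals gave each library. Replicates may therefore be technical, and a p-value here reflects the scatter of the libraries alone.

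The libraries held 10127125 to 12730013 reads on genes, and 1 read was worth 0.0844 to 0.0969 normalized CPM (reads scaled by library total and by a further factor of the authors), so 3 reads corresponded to 0.253 to 0.291 CPM. Adipocyte identity was clear in all 4 libraries, with the adipokine gene Adipoq at 3745 and 3964 CPM in the dermal pair and 3324 and 2965 CPM in the inguinal pair, and the other 9 adipocyte markers of the list were also detected in every library. Of 12797 genes tested, 7.56% were higher and 8.8% were lower in dermal libraries (limma, adjusted p below 0.05), and the median log2 fold change was 0.02. A positive log2 fold change means a higher level in dermal libraries. It was computed on log2(CPM + 0.5) values, which understates the change of low genes. In bulk libraries such as these, fewer cells of a type and less RNA per cell cannot be told apart.

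Smooth muscle and skeletal muscle both contract by sliding actin over myosin, but they use different isoforms and different switches. In smooth muscle, calcium acts through calmodulin and myosin light chain kinase, which phosphorylates the myosin light chain. In striated muscle, calcium binds troponin on the actin filament and moves tropomyosin aside. In fat, smooth muscle cells and pericytes, together called mural cells, wrap the blood vessels. The skin of the mouse back also holds a thin sheet of striated muscle, the panniculus carnosus, and the small smooth muscles that raise the hairs. The factor SRF, with its partner myocardin, binds CArG boxes in smooth muscle and sarcomere promoters, and MEF2 factors bind a separate AT-rich site in muscle genes.

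Most tested smooth muscle contractile genes were lower in dermal libraries, while 2 genes used as pericyte surface markers, and the actin-binding gene Synpo2, were higher. Of the 15 smooth muscle and mural genes, 12 passed the expression filter of 1 CPM in at least 2 libraries. Of these 12, 3 were higher and 7 lower in dermal libraries, against backgrounds of 7.56% and 8.8% of all tested genes, and 2 did not pass the test. Both dermal libraries lay below both inguinal libraries for 8 of the 12 (30.1% of all tested genes) and above them for 3 (31.6% of all tested genes). Of the 8, Lmod1 passed the filter through the inguinal libraries alone. The median log2 fold change of the 12, Lmod1 included, was -1.17. The plot of smooth muscle and mural levels gives each library.

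**Figure D1:**
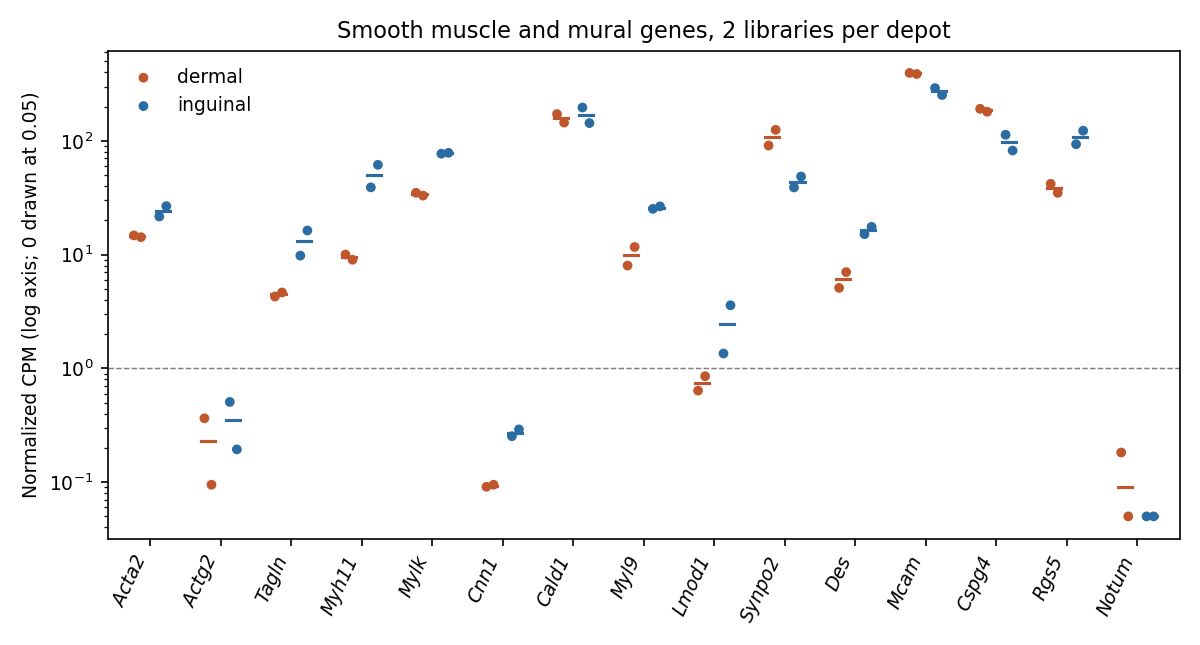
Normalized CPM (log axis) of the 15 smooth muscle and mural genes in dermal (left of each pair) and inguinal libraries. Each point is 1 library, each bar the mean of 2, the dashed line is 1 CPM, and a value of 0 is drawn at the bottom. Myh11 lies at 10.01 and 9.01 CPM in dermal libraries and at 39.0 and 61.6 CPM in inguinal libraries, while Synpo2, Mcam and Cspg4 lie higher in both dermal libraries.

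Myh11 encodes the smooth muscle myosin heavy chain, a marker of mature smooth muscle. It measured 10.01 and 9.01 CPM in the dermal pair and 39.0 and 61.6 CPM in the inguinal pair, without overlap. Its log2 fold change of -2.31 (SE 0.24, adjusted p = 0.00301) had the largest size among the 31 tested muscle genes, and its ratio of normalized levels was 0.192 (95% counting interval 0.165 to 0.223, exact binomial). Intervals on ratios cover counting error only.

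Acta2, the alpha actin of vascular smooth muscle on chromosome 19 (34241090 to 34255590), changed less than Myh11. It measured 14.7 and 14.2 CPM in the dermal pair and 21.6 and 26.7 CPM in the inguinal pair (log2 fold change -0.71, SE 0.17, adjusted p = 0.0398). The inguinal values were higher in both libraries, but the gene did not pass when dermal replicate 1 (adjusted p = 0.160), dermal replicate 2 (0.185) or inguinal replicate 2 (0.0895) was left out. It was also lost on CPM without the authors' further scaling factor (-0.63, adjusted p = 0.0857), without the intensity trend (0.0577) and without a filter (0.0602). Actg2, the gamma actin of visceral smooth muscle, had 4 and 1 reads in the dermal pair and 6 and 2 reads in the inguinal pair, below the filter.

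Myl9, the regulatory light chain that is phosphorylated when smooth muscle contracts, measured 8.01 and 11.7 CPM in the dermal pair and 25.2 and 26.6 CPM in the inguinal pair (log2 fold change -1.38, SE 0.21, adjusted p = 0.0101). Mylk, its kinase, measured 35.0 and 33.0 CPM in the dermal pair and 77.1 and 78.4 CPM in the inguinal pair (log2 fold change -1.18, SE 0.13, adjusted p = 0.00345). The libraries of each depot lay close together for this kinase, and the groups were well apart. Tagln, encoding the actin-binding protein transgelin, measured 4.28 and 4.65 CPM in the dermal pair and 9.80 and 16.3 CPM in the inguinal pair (log2 fold change -1.41, SE 0.28, adjusted p = 0.0209). With dermal replicate 1 left out it did not pass (-1.35, adjusted p = 0.0595). Des, encoding the intermediate filament protein desmin of smooth and striated muscle, measured 5.10 and 7.02 CPM in the dermal pair and 15.1 and 17.5 CPM in the inguinal pair (log2 fold change -1.37, SE 0.22, adjusted p = 0.0117).

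The remaining thin-filament regulators were less uniform. Cald1, encoding caldesmon, which has a smooth muscle form and a form made in most other cells, measured 172 and 145 CPM in the dermal pair and 196 and 143 CPM in the inguinal pair. The groups overlapped and the gene did not pass (log2 fold change -0.09, SE 0.19, adjusted p = 0.779), and its estimate was 0.065 after quantile normalization. Lmod1, a leiomodin that starts actin filaments in smooth muscle, measured 0.637 and 0.854 CPM in the dermal pair and 1.35 and 3.59 CPM in the inguinal pair (log2 fold change -1.15, SE 0.44, adjusted p = 0.126). It passed the filter through the inguinal libraries alone, and without inguinal replicate 1 it was called (-1.72, adjusted p = 0.0174). Cnn1, encoding calponin of mature smooth muscle, had 1 and 1 reads in the dermal pair and 3 and 3 reads in the inguinal pair. The marker was thus near the detection floor in both depots.

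Synpo2, encoding the actin-bundling protein myopodin of smooth and striated muscle, went the other way. It measured 90.9 and 125 CPM in the dermal pair and 38.9 and 48.6 CPM in the inguinal pair (log2 fold change 1.28, SE 0.20, adjusted p = 0.00953). Each dermal value exceeded each inguinal value, and the call held under all 14 alternatives. Synpo2 (chromosome 3, 123076519 to 123236149) overlaps the annotated gene Gm43744 on the opposite strand and 3 further annotated genes on its own strand, and the sources used here do not give whether counting used strand.

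The promoters of these genes are shown as examples of genes that were lower (Myl9 and Acta2) and higher (Synpo2) in dermal libraries. RefSeq promoter windows were found for 33 of the 41 genes, and the 250 bases before the start were searched on both strands for the CArG box, the MEF2 site and the E-boxes CAGCTG and CACCTG. A full CArG box stood in the windows of Myl9, Myh4, Acta1 and Ldb3, 4 of the 33, and in 1.62% of 27025 genes. A CArG box with at most 1 letter changed stood in 19 of the 33 and in 21.1% of genes. A full MEF2 site stood in Synpo2 and Ttn, 2 of the 33, and in 0.592% of genes. The E-box CAGCTG stood in 14 of the 33 and in 14.7% of genes, and CACCTG in 7 of the 33 and in 19.4% of genes. A match is a description of the letters and not of binding. In the windows below, in lower case and read 5′ to 3′ on the gene's strand (GRCm38.p6), capitals mark the CArG box of Myl9 at chr2:156775214-156775463 (+ strand), which lies 161 to 152 bases before the start. Capitals in Acta2 at chr19:34255374-34255623 (- strand) mark CArG boxes with 1 letter changed, 84 to 75 and 34 to 25 bases before the start, and capitals in Synpo2 at chr3:123236150-123236399 (- strand) mark the MEF2 site 236 to 227 bases before the start. None of these capitals overlaps another motif searched. CArG boxes with 1 letter changed are marked in Acta2 only, and in Myl9 they are left in lower case. The start is that of RefSeq. For Acta2 and Myl9 the GENCODE M21 start lies further upstream, so their windows run into the GENCODE gene spans. Both marked boxes of Acta2 lie within its GENCODE span, and the box of Myl9 lies outside its span.
Myl9: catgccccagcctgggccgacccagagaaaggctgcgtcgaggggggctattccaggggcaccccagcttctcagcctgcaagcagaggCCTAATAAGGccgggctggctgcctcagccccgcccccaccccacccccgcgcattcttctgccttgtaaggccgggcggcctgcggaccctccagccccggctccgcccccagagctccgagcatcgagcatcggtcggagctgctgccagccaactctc
Acta2: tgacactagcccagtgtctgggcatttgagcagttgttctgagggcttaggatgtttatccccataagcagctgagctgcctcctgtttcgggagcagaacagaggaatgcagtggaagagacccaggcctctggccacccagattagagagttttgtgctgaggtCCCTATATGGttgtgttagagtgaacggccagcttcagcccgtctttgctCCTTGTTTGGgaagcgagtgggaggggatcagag
Synpo2: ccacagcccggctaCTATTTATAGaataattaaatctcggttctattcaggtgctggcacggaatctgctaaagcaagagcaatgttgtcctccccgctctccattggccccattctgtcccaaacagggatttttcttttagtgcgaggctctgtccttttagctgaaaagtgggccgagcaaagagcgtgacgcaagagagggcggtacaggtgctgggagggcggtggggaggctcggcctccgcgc

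The mural genes split between the depots. Rgs5, a regulator of G-protein signalling that marks pericytes, measured 41.9 and 34.9 CPM in the dermal pair and 93.4 and 123 CPM in the inguinal pair (log2 fold change -1.47, SE 0.18, adjusted p = 0.00465), in the direction of Myh11. Cspg4, encoding the NG2 proteoglycan of pericytes and other progenitor cells, measured 191 and 180.3 CPM in the dermal pair and 113 and 82.2 CPM in the inguinal pair (log2 fold change 0.94, SE 0.17, adjusted p = 0.0174). Mcam, encoding the adhesion molecule CD146 of endothelium and mural cells, measured 395 and 387 CPM in the dermal pair and 291 and 253 CPM in the inguinal pair (log2 fold change 0.53, SE 0.13, adjusted p = 0.0444). Both genes were thus higher in both dermal libraries, opposite to Rgs5.

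The 2 calls differed in how firmly they held. That of Cspg4 was lost with dermal replicate 1 left out (0.90, adjusted p = 0.0697). That of Mcam was lost when dermal replicate 1 (adjusted p = 0.249), dermal replicate 2 (0.227) or inguinal replicate 2 (0.43, adjusted p = 0.0889) was left out, and edgeR's quasi-likelihood test on the recovered reads gave an adjusted p = 0.0510. It was further lost without the intensity trend (0.0907) and without a filter (0.0666). Without dermal replicate 1, 1 smooth muscle or mural gene remained higher in dermal libraries in place of 3. Notum, encoding a secreted enzyme that inactivates Wnt proteins, had 2 reads in 1 dermal library and 0 in the other 3.

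Levels of different genes were compared per kb of annotated exon, because a longer transcript yields more reads. Mcam led all 41 genes, at 117 CPM per kb in the dermal pair and 81.2 CPM per kb in the inguinal pair, above 96.9% of the 12182 tested genes with a known length. Among the contractile genes Cald1 stood at 13.1, Myl9 at 8.47 and Acta2 at 6.60 CPM per kb in dermal libraries. In inguinal libraries Cald1 stood at 14.1, Myl9 at 22.3 and Acta2 at 11.0 CPM per kb. Myh11 stood at 1.25 CPM per kb in the dermal pair and 6.62 CPM per kb in the inguinal pair. The order of the levels therefore differed between the depots, and Synpo2 ranked above Myh11 in dermal libraries (8.25 CPM per kb) and below it in inguinal libraries (3.34 CPM per kb). Exon length was the union over annotated isoforms, so a gene whose longest isoforms are little used would be set low on this scale, and isoform use was not measured.

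**Figure D2:**
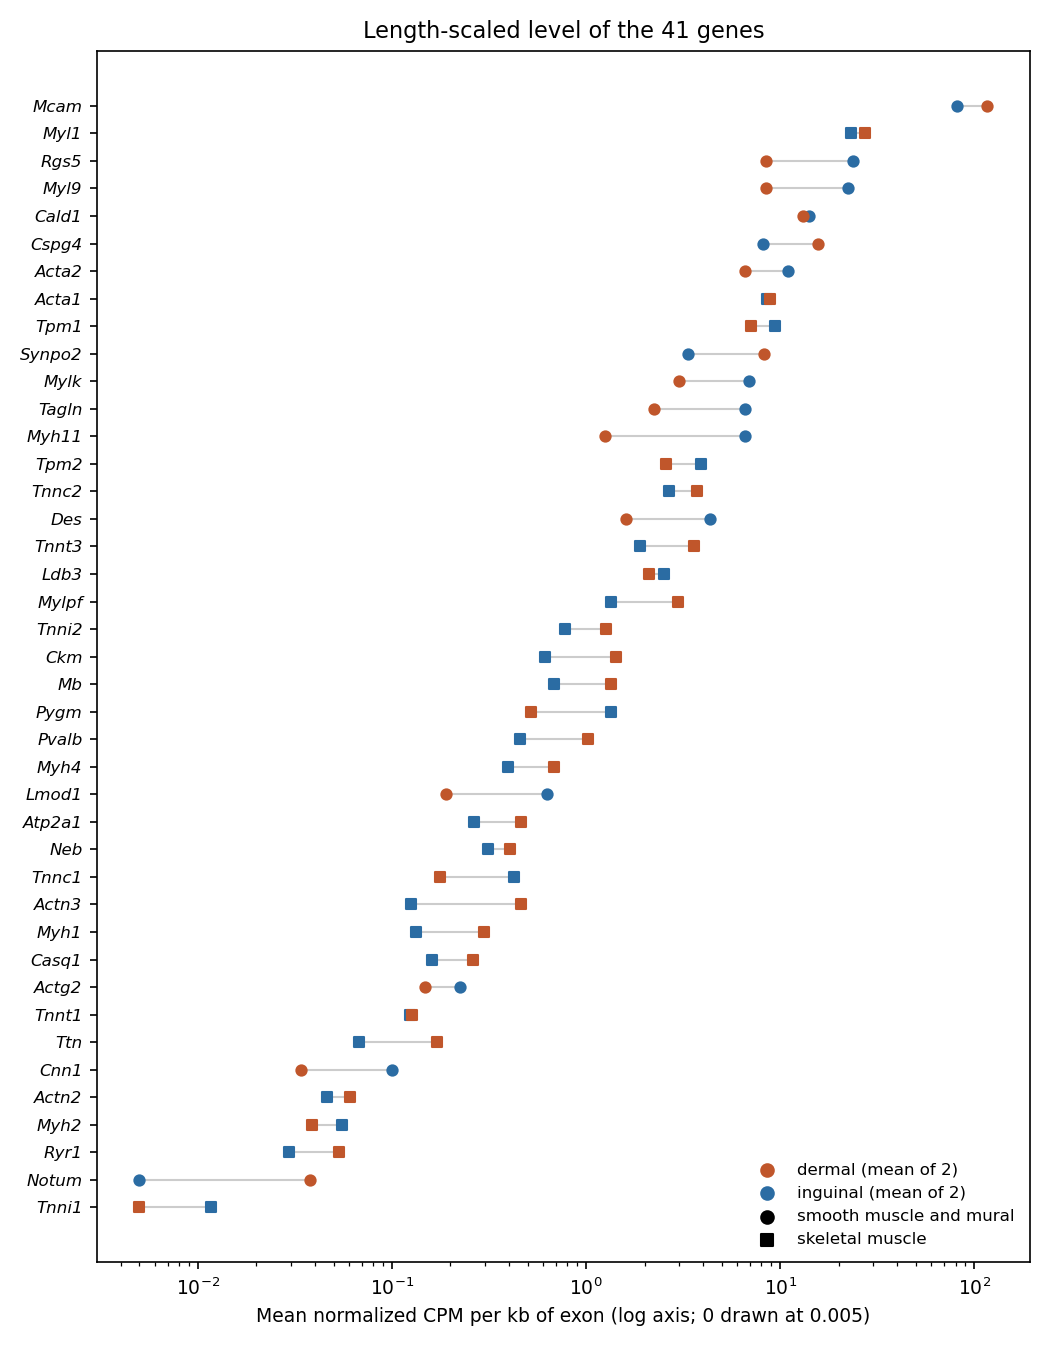
Mean normalized CPM per kb of exon (log axis) of the 41 genes, ordered by the sum of both depots. Colours give the depot (mean of 2 libraries each), circles mark smooth muscle and mural genes, squares mark skeletal muscle genes, and a value of 0 is drawn at the left edge. Mcam leads at 117 and 81.2 CPM per kb in dermal and inguinal libraries, followed by the skeletal gene Myl1 at 27.4 and 23.2.

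Other genes of mural cells and of smooth muscle contraction were lower in dermal libraries or did not pass. Of 11 further pericyte markers, 10 were tested, 0 were higher (7.56% of all tested genes) and 3 lower (8.8%) in dermal libraries, and each of the 10 had a negative estimate (median -0.82). The 3 were Abcc9, the sulfonylurea receptor subunit of the vascular potassium channel, at 37.0 and 42.0 CPM in the dermal pair and 97.6 and 163 CPM in the inguinal pair (log2 fold change -1.67, adjusted p = 0.00834), Pdgfrb (-0.91, adjusted p = 0.0337), the receptor that recruits pericytes, and Notch3 (-1.06, adjusted p = 0.0290), a receptor of arterial smooth muscle. The summed level of the list was 117 and 126 CPM in the dermal pair and 219.8 and 338 CPM in the inguinal pair. Higd1b fell below the filter, at 7 and 1 reads in the dermal pair and 14 and 8 reads in the inguinal pair.

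Of 28 regulators and associated proteins of smooth muscle contraction, 27 were listed and 23 tested, and 0 were higher (7.56% of all tested genes) and 10 lower (8.8%) in dermal libraries. The median log2 fold change of the 23 was -0.64, and estimates were positive for 3 and negative for 20. Both dermal libraries lay below both inguinal libraries for 15 of the 23 (30.1% of all tested genes) and above them for 2 (31.6%). The 2 were Mkl1 (0.61, adjusted p = 0.0999) and Ppp1r12b (0.36, adjusted p = 0.247), and neither passed. Among the 10 were Srf itself (-1.03, adjusted p = 0.0219), the nitric oxide receptor subunits Gucy1a3 (-1.27, adjusted p = 0.0145) and Gucy1b3 (-1.15, adjusted p = 0.0470), the relaxing kinase Prkg1 (-1.49, adjusted p = 0.0217) and the voltage-gated calcium channel gene Cacna1c (-1.56, adjusted p = 0.0369). Vcl, encoding the adhesion protein vinculin, fell to 206 and 198 CPM in dermal libraries, against 347 and 314 CPM in the inguinal pair (log2 fold change -0.71, adjusted p = 0.0155). Of the 10, Casq2, a calcium store protein of cardiac and smooth muscle, passed the filter through the inguinal libraries alone. The widely expressed members Rhoa (-0.02, adjusted p = 0.928), Rock2 (-0.07, adjusted p = 0.762) and Flna (-0.03, adjusted p = 0.934) did not pass. Other members at high levels were among the 10 lower. They included Itpr1, at 93.8 and 85.2 CPM in the dermal pair and 141 and 154 CPM in the inguinal pair (-0.72, adjusted p = 0.0155). Ppp1r12a was lower as well (-0.64, adjusted p = 0.0335). Myocd, the smooth muscle partner of SRF, was near the floor with 1 and 0 reads in the dermal pair and 2 and 8 reads in the inguinal pair. Kcnmb1 is not analysed here.

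Endothelial markers moved in the direction of the contractile genes. All 10 of 10 were lower in dermal libraries (8.8% of all tested genes), their median log2 fold change was -1.97, and their summed level was 403 and 459 CPM in the dermal pair and 1461 and 2278 CPM in the inguinal pair, with none at 0. Macrophage markers moved in the opposite direction, 8 of 8 being higher in dermal libraries (7.56% of all tested genes), at summed levels of 1354 and 1264 CPM in the dermal pair and 435 and 392 CPM in the inguinal pair. Their part in the muscle gene differences was not tested. The plot of summed levels sets these lists side by side.

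**Figure D3:**
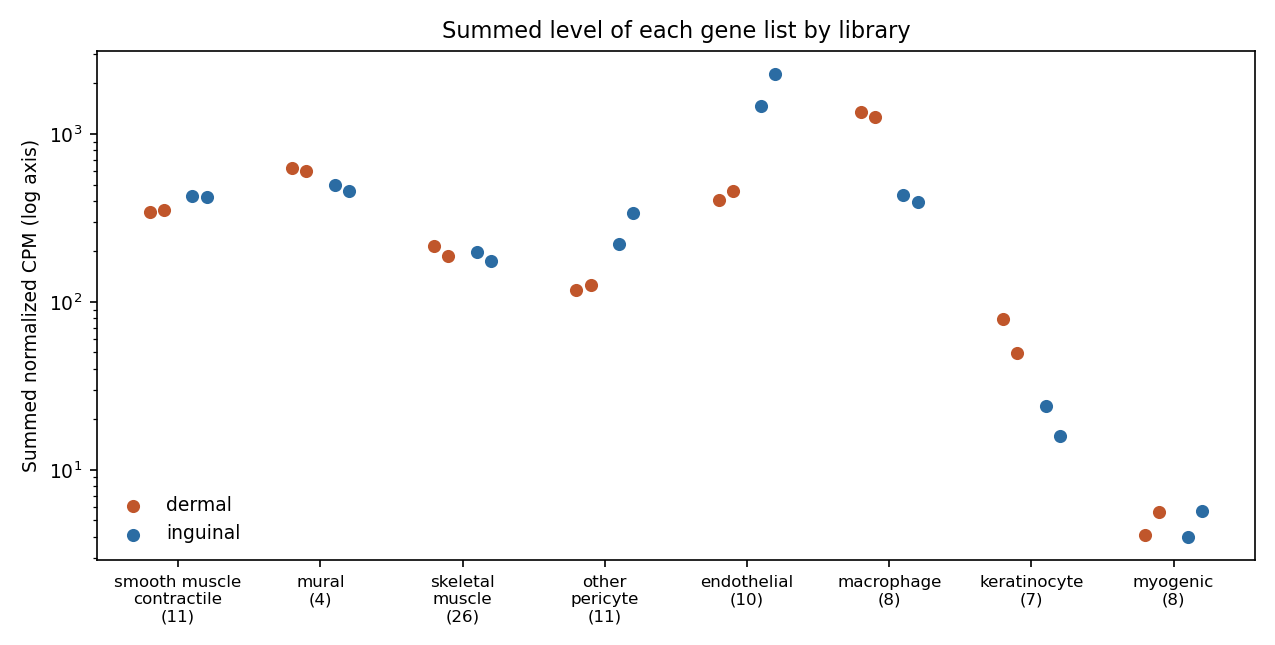
Summed normalized CPM (log axis) of each gene list by library, dermal left and inguinal right, with the number of listed genes in brackets. Each point is 1 library. Endothelial sums lie at 403 and 459 CPM in the dermal pair and 1461 and 2278 CPM in the inguinal pair. Skeletal muscle sums, in which Myl1 and Tpm1 weigh heavily, overlap between the depots.

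Skeletal muscle genes were mostly low in both depots, and most did not pass as different. Of the 26, 19 passed the expression filter, 2 were higher in dermal libraries (7.56% of all tested genes), 1 was lower (8.8%) and 16 did not pass. The median log2 fold change of the 19 was 0.55, against 0.02 over all tested genes. Estimates were positive for 15 and negative for 4, the 4 being Pygm, Tpm2, Tpm1 and Ldb3. Both dermal libraries lay above both inguinal libraries for 11 of the 19 (31.6% of all tested genes) and below them for 3 (30.1%). Ryr1 and Pvalb reached the filter because of the dermal libraries, both inguinal values being lower than 1 CPM. Both enter the median, the 15 positive estimates and the 11, and the median of 0.55 is the estimate of Ryr1 itself. The summed level of the 26 genes was 215 and 189 CPM in the dermal pair and 199 and 176 CPM in the inguinal pair. These sums overlap, and they weigh a few genes heavily, Myl1 and Tpm1 having the highest CPM of the 26. Tpm1, also made in other cells, added 43.1 and 48.3 CPM in the dermal pair and 53.9 and 68.4 CPM in the inguinal pair. Its direction, and that of Tpm2 at a lower level, was opposite to that of most of the 19 tested genes.

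**Figure D4:**
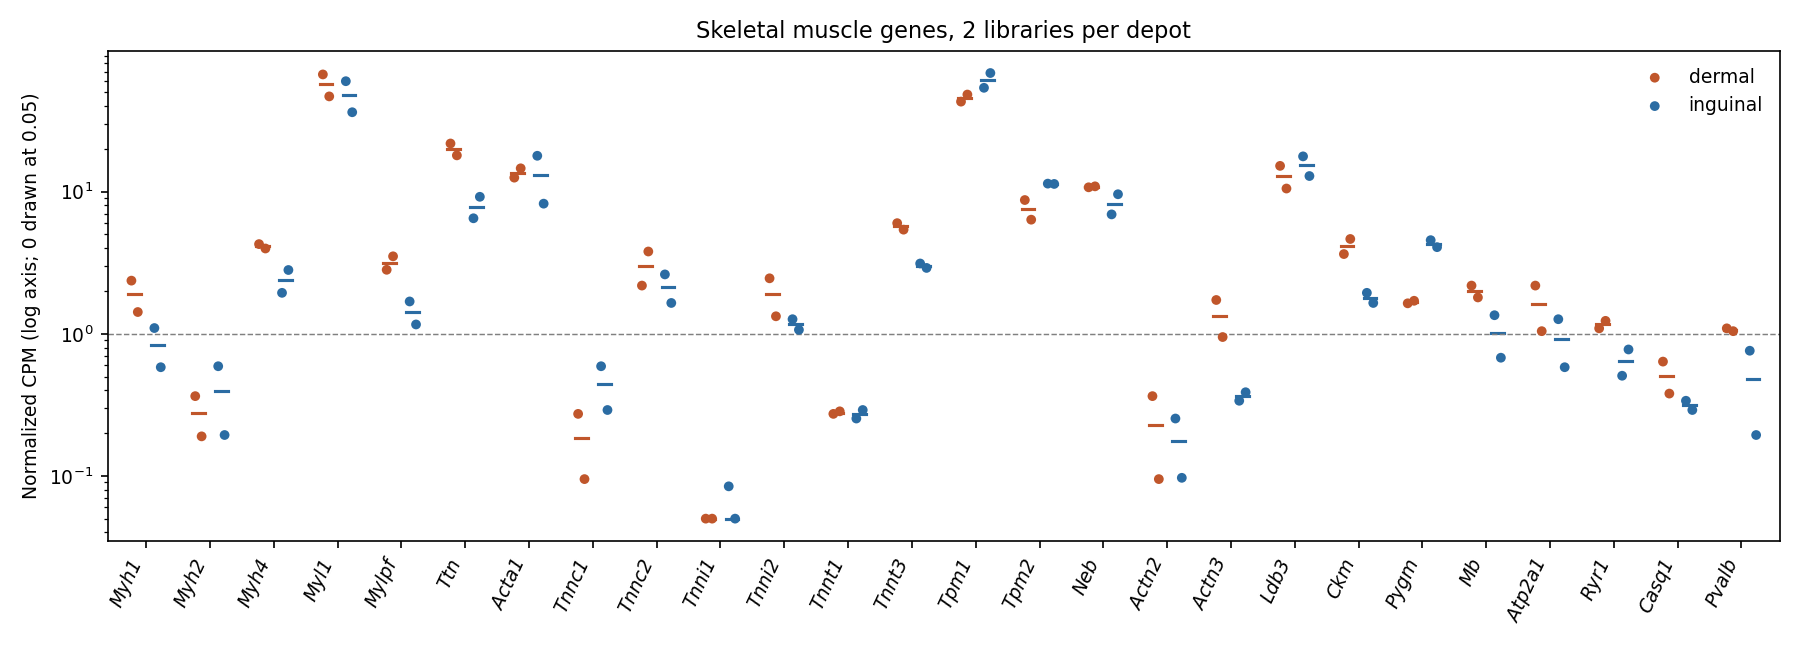
Normalized CPM (log axis) of the 26 skeletal muscle genes in dermal (left of each pair) and inguinal libraries, ordered by role from the thick filament to calcium handling. Each point is 1 library, each bar the mean of 2, the dashed line is 1 CPM, and a value of 0 is drawn at the bottom. Ttn lies at 21.8 and 18.0 CPM in dermal and at 6.50 and 9.21 CPM in inguinal libraries, and the slow-fibre troponins Tnnc1, Tnni1 and Tnnt1 lie below 1 CPM in every library.

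In the thick filament, Ttn, encoding the giant spring protein titin, measured 21.8 and 18.0 CPM in the dermal pair and 6.50 and 9.21 CPM in the inguinal pair (log2 fold change 1.30, SE 0.23, adjusted p = 0.0146). The dermal libraries exceeded the inguinal ones without overlap, but with dermal replicate 1 left out the gene did not pass (1.17, adjusted p = 0.0676). Ttn is a very long transcript, and per kb it stood at only 0.171 CPM in the dermal pair and 0.0672 CPM in the inguinal pair. Its promoter window at chr2:76982548-76982797 (GRCm38.p6, - strand) is shown beside that of Synpo2 because both hold a full MEF2 site, here in capitals, 166 to 157 bases before the start.
Ttn: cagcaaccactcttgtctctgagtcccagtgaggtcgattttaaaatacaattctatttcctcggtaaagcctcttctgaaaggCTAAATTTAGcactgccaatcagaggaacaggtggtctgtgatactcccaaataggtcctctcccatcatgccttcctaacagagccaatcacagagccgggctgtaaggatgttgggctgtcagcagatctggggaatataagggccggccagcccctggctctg

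Myl1, the essential light chain of fast fibres, had the highest level per kb of the skeletal genes. It measured 66.9 and 46.9 CPM in the dermal pair and 60.0 and 36.3 CPM in the inguinal pair. The groups overlapped, and it did not pass (log2 fold change 0.26, SE 0.28, adjusted p = 0.560). In both depots replicate 1 was the higher library. Mylpf, the regulatory light chain that pairs with it in fast fibres, measured 2.82 and 3.51 CPM in the dermal pair and 1.69 and 1.16 CPM in the inguinal pair (log2 fold change 0.94, SE 0.29, adjusted p = 0.0797). Per kb of exon, Myl1 stood at 27.4 CPM in the dermal pair and 23.2 CPM in the inguinal pair, and Mylpf at 2.98 CPM in the dermal pair and 1.34 CPM in the inguinal pair, so these 2 light chains were far apart in level. Of the 50-base stretches of Myl1 transcripts, 11.7% also occur in the annotated pseudogene Mylf-ps, whereas 0% of those of Mylpf occur in another gene.

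The fast myosin heavy chains Myh1, Myh2 and Myh4 lie next to each other on chromosome 11, from 67171027 to 67260446. Myh4, of the fastest fibre type, measured 4.28 and 3.98 CPM in the dermal pair and 1.94 and 2.81 CPM in the inguinal pair (log2 fold change 0.70, SE 0.27, adjusted p = 0.129). Myh1 measured 2.37 and 1.42 CPM in the dermal pair and 1.10 and 0.582 CPM in the inguinal pair (log2 fold change 0.84, SE 0.37, adjusted p = 0.174). Both were higher in both dermal libraries without passing. Myh2, of the oxidative fast fibre type, had 4 and 2 reads in the dermal pair and 7 and 2 reads in the inguinal pair. These paralogs share sequence, with 25.4% of the 50-base stretches of Myh1, 22.9% of those of Myh2 and 18.9% of those of Myh4 found in another gene, so their reads could have been split.

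In the thin filament, Acta1, the actin of skeletal muscle, measured 12.6 and 14.6 CPM in the dermal pair and 17.9 and 8.24 CPM in the inguinal pair. The inguinal libraries straddled the dermal ones, and the gene did not pass (log2 fold change 0.15, SE 0.35, adjusted p = 0.807). Its estimate was -0.39 without inguinal replicate 2. Of its 50-base stretches 2.02% occur unchanged in another gene. Stretches that nearly match other actins were not counted, so how far its reads could be told apart from theirs was not tested. Its promoter window at chr8:123894776-123895025 (GRCm38.p6, - strand), printed for comparison with the smooth muscle actin, carries a full CArG box, in capitals, 73 to 64 bases before the start. Only full boxes are in capitals here, and stretches with 1 letter changed, such as ccatatacgg, are left in lower case. The number of marked boxes is therefore not comparable with that of Acta2.
Acta1: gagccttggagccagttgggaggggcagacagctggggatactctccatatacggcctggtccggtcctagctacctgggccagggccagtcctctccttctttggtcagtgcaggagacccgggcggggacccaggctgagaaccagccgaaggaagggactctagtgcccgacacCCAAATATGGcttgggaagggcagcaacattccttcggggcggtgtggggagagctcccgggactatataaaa

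The troponins of fast fibres, which sense calcium on the thin filament, all had positive estimates and none passed. Tnnt3, the fast tropomyosin-binding subunit, came nearest, at 6.01 and 5.41 CPM in the dermal pair and 3.12 and 2.91 CPM in the inguinal pair (log2 fold change 0.82, SE 0.23, adjusted p = 0.0573). Without the intensity trend it passed (adjusted p = 0.0312). Tnnc2, the fast calcium-binding subunit, measured 2.18 and 3.79 CPM in the dermal pair and 2.62 and 1.65 CPM in the inguinal pair (adjusted p = 0.487), and Tnni2, the fast inhibitory subunit, 2.46 and 1.33 CPM in the dermal pair and 1.27 and 1.07 CPM in the inguinal pair (adjusted p = 0.385).

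The slow-fibre troponins had few reads in every library. Tnnt1 had 3 and 3 reads in the dermal pair and 3 and 3 reads in the inguinal pair. Tnnc1, also the troponin C of the heart, had 3 and 1 reads in the dermal pair and 7 and 3 reads in the inguinal pair. Tnni1 had 0 reads in both dermal libraries and 1 and 0 reads in inguinal libraries. No slow subunit reached the filter, so the depots could not be compared for them.

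Tropomyosins, the coiled coils that troponin moves, are made in smooth muscle and other cells as well. Tpm1 measured 43.1 and 48.3 CPM in the dermal pair and 53.9 and 68.4 CPM in the inguinal pair (log2 fold change -0.41, SE 0.16, adjusted p = 0.141), and Tpm2 8.74 and 6.36 CPM in the dermal pair and 11.4 and 11.3 CPM in the inguinal pair (-0.58, SE 0.22, adjusted p = 0.125). Both lay lower in both dermal libraries, as most smooth muscle genes did, without passing. Tpm1 was called without inguinal replicate 1 (-0.58, adjusted p = 0.0337). Neb, encoding nebulin, which spans the thin filament of skeletal muscle, measured 10.7 and 10.9 CPM in the dermal pair and 6.92 and 9.60 CPM in the inguinal pair (0.39, SE 0.22, adjusted p = 0.274).

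Z disc genes anchor the thin filaments. Ldb3, a Z disc adaptor, measured 15.2 and 10.5 CPM in the dermal pair and 17.7 and 12.9 CPM in the inguinal pair, with overlapping groups (log2 fold change -0.25, SE 0.25, adjusted p = 0.542). The sarcomeric actinin of fast fibres, Actn3, fell below the filter with 19 and 10 reads in the dermal pair and 4 and 4 reads in the inguinal pair, a ratio of normalized levels of 3.73 (95% counting interval 1.66 to 9.45, exact binomial). Actn2, the actinin of all striated fibres, had 4 and 1 reads in the dermal pair and 3 and 1 reads in the inguinal pair.

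Genes of energy supply gave the other 2 calls among skeletal genes, in opposite directions. Ckm, the muscle creatine kinase, measured 3.64 and 4.65 CPM in the dermal pair and 1.94 and 1.65 CPM in the inguinal pair (log2 fold change 1.01, SE 0.27, adjusted p = 0.0489). Pygm, the muscle glycogen phosphorylase, measured 1.64 and 1.71 CPM in the dermal pair and 4.56 and 4.07 CPM in the inguinal pair (-1.15, SE 0.25, adjusted p = 0.0277). Neither pair of groups overlapped, but the Ckm call was lost when any single library was left out, with adjusted p of 0.124 and 0.281 without dermal replicates 1 and 2 and of 0.0507 and 0.0916 without inguinal replicates 1 and 2. It was also lost with edgeR on the recovered reads (adjusted p = 0.0562) and with DESeq2 (0.163). The Pygm call was lost when dermal replicate 1 (0.120), dermal replicate 2 (0.108) or inguinal replicate 1 (0.0666) was left out and with DESeq2 (0.0820). Mb, the oxygen store myoglobin, measured 2.18 and 1.80 CPM in the dermal pair and 1.35 and 0.679 CPM in the inguinal pair (0.75, SE 0.34, adjusted p = 0.187).

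Calcium handling genes stayed near the filter in every library. Atp2a1, the calcium pump of fast fibres, measured 2.18 and 1.04 CPM in the dermal pair and 1.27 and 0.582 CPM in the inguinal pair (adjusted p = 0.409). Ryr1, the calcium release channel, measured 1.09 and 1.23 CPM in the dermal pair and 0.507 and 0.776 CPM in the inguinal pair (adjusted p = 0.298), and Pvalb, the calcium buffer parvalbumin of fast fibres, 1.09 and 1.04 CPM in the dermal pair and 0.760 and 0.194 CPM in the inguinal pair (adjusted p = 0.256). Casq1, the calcium store protein of the skeletal reticulum, had 7 and 4 reads in the dermal pair and 4 and 3 reads in the inguinal pair. At these depths differences of these sizes did not pass.

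**Figure D5:**
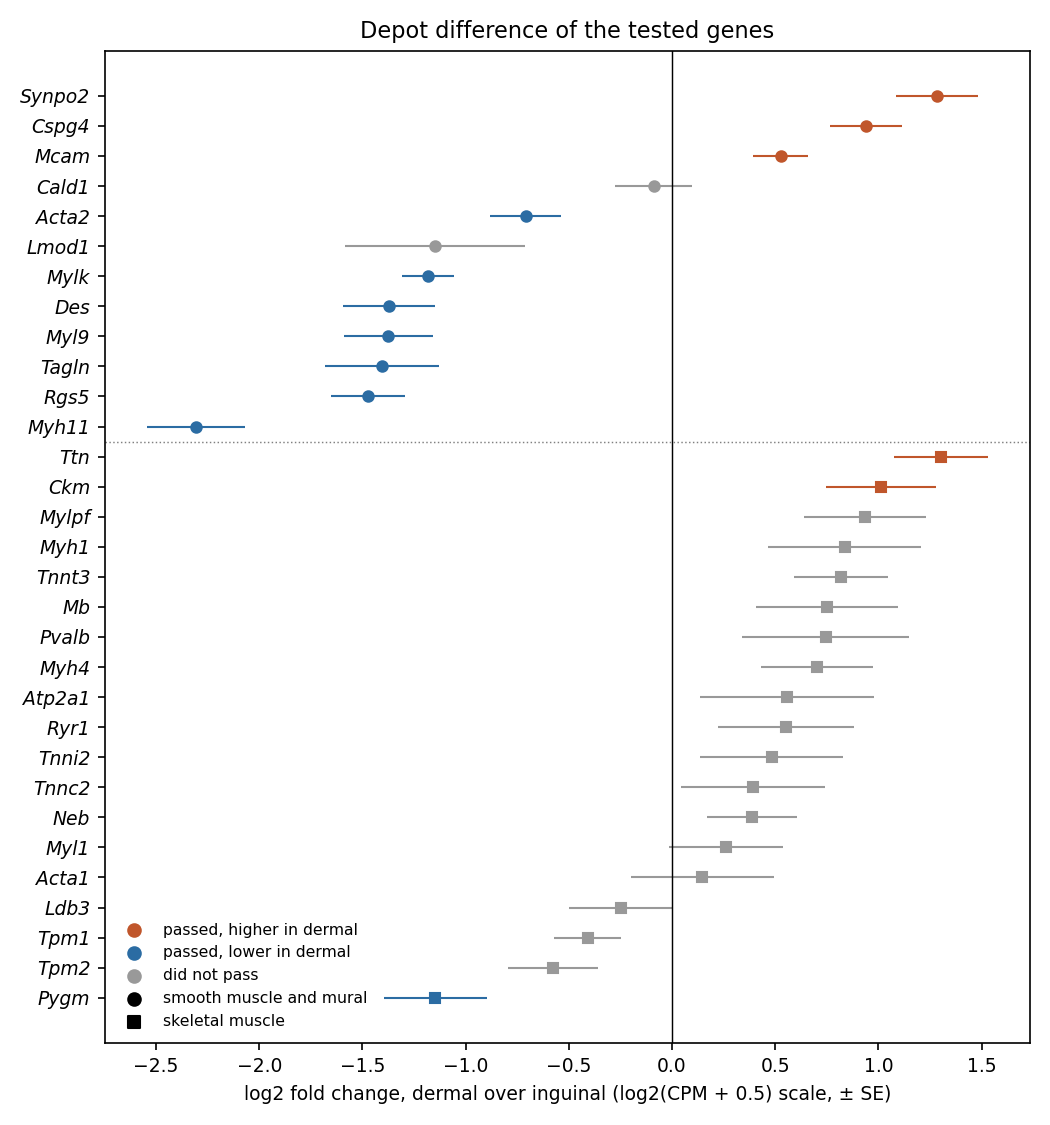
Log2 fold change of log2(CPM + 0.5) values, dermal over inguinal, for the 31 tested genes, with the standard error from limma (n = 2 libraries per depot). Circles above the dotted line are smooth muscle and mural genes, squares below it skeletal muscle genes, and colours give the calls. The smooth muscle and mural genes run from Synpo2 at 1.28 to Myh11 at -2.31, the skeletal genes from Ttn at 1.30 to Pygm at -1.15.

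Further skeletal muscle genes were mostly too low to test. Of 37 structural and metabolic genes outside the 26, 35 were listed and 9 tested, and 1 was higher (7.56% of all tested genes) and 0 lower (8.8%) in dermal libraries, the median log2 fold change being -0.21. The 1 was Phkg1, a catalytic subunit of phosphorylase kinase, at 44.2 and 45.3 CPM in the dermal pair and 32.4 and 28.7 CPM in the inguinal pair (log2 fold change 0.55, adjusted p = 0.0458). Next by adjusted p came Dmd, encoding dystrophin, which links the muscle cytoskeleton to the membrane. It measured 11.9 and 14.3 CPM in the dermal pair and 19.9 and 30.4 CPM in the inguinal pair, lower in both dermal libraries without passing (-0.89, adjusted p = 0.0510). Both dermal libraries lay above both inguinal libraries for 2 of the 9 (31.6% of all tested genes) and below them for 3 (30.1%). Of the 3, Jph2 passed the filter through the inguinal libraries alone, and it also enters the median. Myh7, the slow myosin heavy chain, had 0 reads in 3 libraries and 4 reads in 1 inguinal library. Myl2 and Sln are not analysed here.

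Regulators of skeletal muscle cells were detected at a few reads. Pax7, of muscle stem cells, had 3 and 5 reads in the dermal pair and 0 and 1 reads in the inguinal pair. Myf5, of myoblasts, had 3 and 5 reads in the dermal pair and 1 and 0 reads in the inguinal pair, and Myog, of differentiating myoblasts, 4 and 6 reads in the dermal pair and 1 and 0 reads in the inguinal pair. Cdh15, the muscle cadherin, had 4 and 4 reads in the dermal pair and 1 and 0 reads in the inguinal pair. Not every gene of the list had more reads in dermal libraries. Myf6, of myofibres, had 0 and 0 reads in the dermal pair and 1 and 1 reads in the inguinal pair, and Pax3, of muscle progenitors, 0 and 0 reads in the dermal pair and 0 and 2 reads in the inguinal pair. Musk, the receptor kinase of the neuromuscular junction, had 2 and 8 reads in the dermal pair and 2 and 2 reads in the inguinal pair. None of these 7 reached the filter. Of the 8 listed regulators and markers, Chrna1, a subunit of the acetylcholine receptor, alone was tested, at 2.64 and 2.94 CPM in the dermal pair and 3.46 and 5.14 CPM in the inguinal pair (adjusted p = 0.242). The summed level of the 8 was 4.10 and 5.60 CPM in the dermal pair and 3.97 and 5.72 CPM in the inguinal pair, since Chrna1 holds most of the reads, with Myf6 and Pax3 at 0 in both dermal libraries. Myod1 and Chrng are not analysed here.

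Keratinocyte markers had higher summed levels in both dermal libraries. Of 7 listed, 5 were tested, and Krt5, Krt15 and Dsp were above 1 CPM in the dermal libraries alone and so entered the test through the depot where they are high. Of the others tested, Trp63, a regulator of basal epithelium, rose (log2 fold change 1.19, adjusted p = 0.0225) and Krt10 did not pass (0.02, adjusted p = 0.974). The list had summed levels of 79.5 and 49.6 CPM in the dermal pair and 23.9 and 15.9 CPM in the inguinal pair. Trp63 held most of these sums, at 46.2 and 34.7 CPM in the dermal pair and 21.2 and 14.2 CPM in the inguinal pair. Krt5 had 58 and 33 reads in the dermal pair and 1 and 0 reads in the inguinal pair. Krt5, Krt14, Krt15 and Dsg3 each had 0 reads in 1 inguinal library. Krt14, of basal keratinocytes, had 11 and 7 reads in the dermal pair and 0 and 1 reads in the inguinal pair. Of 7 fibroblast markers 1, Dpt, was higher (7.56% of all tested genes) and 0 were lower (8.8%) in dermal libraries, at summed levels of 6499 and 14095 CPM in the dermal pair and 3912 and 6596 CPM in the inguinal pair. Brown adipocyte markers, some of which share metabolic roles with oxidative muscle, were lower in dermal libraries in 5 of 6 tested cases (8.8% of all tested genes), at summed levels of 62.7 and 59.3 CPM in the dermal pair and 206 and 246 CPM in the inguinal pair, with Ucp1 at 0 in 1 dermal library. Of the 5, Ucp1 passed the filter through the inguinal libraries alone. The part of these cells in the skeletal muscle gene values was not tested.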

How the data were processed

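The 2 dermal and 2 inguinal libraries were prepared with a stranded total RNA kit after DNase treatment, per the labels' protocols. The submitters' processing notes name mm10, edgeR, featureCounts (Subread 1.4.6), TopHat2 2.0.12 and Picard 1.127, giving no role for any of them. The deposited values, a normalized signal in CPM units, carry another scaling factor of the authors, since the columns sum to between 960745 and 1074951. Every value was a whole multiple of 1 step per library (100% of genes within 0.001 of a whole number), which recovers the reads, 10127125 to 12730013 per library.

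Genes with at least 1 CPM in at least 2 of the 4 libraries (12797 of 18781) entered limma 3.58.1 (R 4.3.3), fitted to log2(CPM + 0.5) values with a trended prior variance, two-sided, with Benjamini-Hochberg adjustment over all tested genes and a threshold of 0.05. Alternatives on recovered reads used edgeR 4.0.16 and DESeq2 1.42.0. Of these, edgeR called 923 genes higher and 1133 lower in dermal libraries, DESeq2 823 and 1162, limma 968 and 1126. On counts simulated at these depths (12639 genes tested), changes were planted only in genes with a mean above 5 CPM. There limma recovered 80% of planted log2 changes of 1 and 100% of those of 2, and 2.70% of its calls were false. Changes were planted in 100 genes at each size. The simulated spread was set by expression level alone, without a spread particular to each gene, and libraries were independent. These rates may therefore not carry over to the deposited libraries. Recovery was not simulated below 5 CPM, where many skeletal members lay. Exon lengths, positions and shared 50-base stretches came from GENCODE M21 on GRCm38, and promoters from RefSeq on GRCm38.p6. Ratios carry 95% exact binomial intervals.

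The members and the lists were chosen with earlier results of these data known. All 41 members are accounted for. Values in every library are given for members past the threshold and for the 2 of each role group with the highest CPM per kb, and, of the other lists, mainly 2 genes by smallest adjusted p and 2 by highest level. Outside this rule fall Srf, Mkl1, Prkg1, Gucy1b3, Cacna1c, Itpr1, Ppp1r12a, Ppp1r12b, Casq2, Myocd, Higd1b, Flna, Myh7 and Jph2. The muscle stem cell and keratinocyte genes also fall outside it. All of these were picked after seeing their values. Emr1 stands for Adgre1. Members with an annotated gene on the opposite strand include Des, Tagln, Mylk, Mcam, Synpo2, Ttn, Ckm, Mb and Acta1. No gene list was tested as a set.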

Additional observations from a re-analysis of the deposited data

How the results depend on the processing

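Across 14 alternatives, the calls of Myh11, Mylk, Myl9, Des, Rgs5 and Synpo2 held in each. Among all tested genes, the fit with the replicate number as a block (replicate block) called 2342 higher and 2384 lower in dermal libraries, against 968 and 1126 without it. Leaving out 1 library, where the lone library is assumed to vary like the other depot, gave 339 to 1212 higher and 568 to 1470 lower. With the block, 6 skeletal members were higher and 3 lower, and 8 smooth muscle and mural members were lower. Members that passed with the block and not without it were Myh1, Myh4, Mylpf, Tnnt3, Tpm1, Tpm2 and Lmod1 (adjusted p 0.0105 to 0.0443). Same-numbered libraries of both depots deviated together (correlation 0.46 over genes), but with 2 pairs the numbers were not taken to pair samples. Skeletal members higher in dermal libraries, 2 as reported, numbered 1 with a pseudocount of 0.1, without a filter, with a filter at 5 CPM, with quantile normalization, with edgeR and with DESeq2, and 4 without the intensity trend. Those lower, 1 as reported, numbered 0 without a filter, at 5 CPM and with DESeq2. Leaving out 1 library gave 0 to 1 skeletal members higher and 0 to 1 lower, and 1 to 3 smooth muscle and mural members higher and 5 to 8 lower. The median log2 fold change of smooth muscle and mural members was -0.71 without a filter and -1.30 to -0.82 with 1 library left out. That of skeletal members was 0.74 with a pseudocount of 0.1, 0.40 with 1, 0.39 without a filter, 0.20 at 5 CPM, 0.78 with edgeR, 0.78 with DESeq2 and 0.40 to 0.75 with 1 library left out. The estimates of 4 genes that had not passed changed sign. Cald1 was 0.065 after quantile normalization. With 1 library left out, Cald1 ranged over -0.32 to 0.14, Myl1 over -0.10 to 0.62, Acta1 over -0.39 to 0.68 and Ldb3 over -0.50 to 0.0068. The cause of these changes was not tested, apart from the filters, which change the genes entering each count. With 2 libraries per depot, genes under about 20 reads gave wide counting intervals.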
